A study of Mus musculus with 11 samples.

Results

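Hk1, Hk2, Pfkp, Eno1, Eno1b, Pkm, Ldha, Pck1 and Fbp1 are 9 genes of sugar metabolism that were followed through mouse kidneys with and without lupus nephritis. They were taken by symbol from a count table of 25677 genes, and all 9 were found. Eno1b was picked by its measured level, because it differed strongly between the strains beside the near-identical gene Eno1. The differences of Eno1 and Eno1b from control kidneys are therefore given as a description, with no test. Kidney RNA came from 3 libraries of C57BL/6J mice without treatment (Ctr, given as C57B6 in the labels), 4 libraries of MRL/lpr mice without treatment (Lpr) and 4 libraries of MRL/lpr mice that received DNase I (DNase). All mice were female and 21 weeks old, and DNase I, an enzyme that digests DNA outside cells, was injected into the abdomen every day from week 17. MRL/lpr mice carry a defective Fas gene on the MRL background and develop lupus-like nephritis. The control mice therefore lacked both the mutation and the MRL background, and strain and disease cannot be told apart in any difference from Ctr. Lpr and DNase shared the strain and the mutation and differed in the treatment. Whether untreated mice were given injections without the enzyme is not given in the sources used here, so that the enzyme and the daily injection cannot be told apart.

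Glycolysis breaks glucose down to pyruvate and lactate, and gluconeogenesis runs most of the same steps backwards and makes new glucose. The kidney does both in different places: proximal tubules use little glucose and are a site of gluconeogenesis, whereas distal segments and infiltrating leukocytes depend more on glycolysis. Hexokinases (Hk1, Hk2) phosphorylate glucose, phosphofructokinase (Pfkp) commits it to glycolysis, enolase (Eno1, Eno1b) makes phosphoenolpyruvate, pyruvate kinase (Pkm) makes pyruvate, and lactate dehydrogenase (Ldha) interconverts pyruvate and lactate. Pck1 and Fbp1 encode phosphoenolpyruvate carboxykinase and fructose bisphosphatase, which act only in the direction of glucose synthesis.

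Each library held between 33469858 and 38460873 reads counted on genes. By the study's text each library is the kidney of 1 mouse, so that p-values measure the spread between mice of a group. Library Lpr 3 stood apart. Relative to each gene's mean over all libraries, its level fell by 0.328 log2 units per doubling of gene length. The other 10 libraries had slopes between -0.0313 and 0.0672. Lpr 3 was the highest of the 4 Lpr libraries for 5 of the 9 members and the lowest for 3. Its part in the results was not tested, and the members' fold changes that moved most with it are given with and without it. Levels are in CPM, counts scaled to a common library total after normalisation between libraries by the trimmed mean method of edgeR. The order of the members and the shares of an enzyme step are given per gene length (FPKM unless stated). The Eno1b share of counts, the summed levels and the order of markers by abundance do not correct for gene length. In whole kidney, fewer cells of a type and less RNA per cell cannot be told apart.

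Eno1b is a copy of Eno1 without introns, placed on another chromosome. The reading frame of Eno1 is split into 11 coding segments and that of Eno1b is in 1 segment. Both reading frames hold 1302 bases, and they differ at 8 of them, an identity of 99.39%. Within the reading frame, a read taken alone can be given to one gene or the other only by positions that differ. Bases outside the reading frame can tell the genes apart as well. The 30 bases of the Eno1 reading frame that hold the most differences are printed. They are bases 724 to 753 of the reading frame, counted from the first base of the start codon, and lie in coding segment 7 on the plus strand of chr4:150246626-150246655 (GRCm38, the build that the labels call mm10). Capitals mark the 3 bases at which Eno1b differs.
Eno1: atTggcatggatgtggctgcctcCgaGttc
Of all windows of 100 bases in the Eno1 reading frame, the length of 1 read, 68.6% occur whole in Eno1b as well. The longest stretch of the reading frame without a difference holds 725 bases. Over whole transcripts the share of such windows is 58.6% for Eno1 and 61.8% for Eno1b. How reads that match both genes were counted is not given in the sources used here. The split between Eno1 and Eno1b is therefore uncertain, and their sum is given beside it. Only reference sequences were compared, so whether the genes of MRL/lpr mice match them was not tested. For each of the pair the reference transcripts hold 2 further copies without a row in the table, which match 70% or more of the reading frame at an identity of 95% or more, so that the sum can lose or gain reads as well. Such copies without a row number 2 for Ldha and 1 for Pkm, and none were found for the other members.

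Eno1b was low in every Ctr kidney and well above that level in every MRL/lpr kidney, treated or not. It measured 11.9, 9.10 and 12.0 CPM in Ctr. It measured 164, 116, 257 and 165 CPM in Lpr. It measured 172, 160.3, 192 and 185 CPM in DNase. No MRL/lpr library came near the Ctr values, and the ranges of Lpr and DNase overlapped. The fitted level was 15.9-fold higher in Lpr and 16.1-fold higher in DNase than in Ctr, on the scale of the normalised counts. As a log2 difference from Ctr, Eno1b in Lpr was 3.99, and 3.75 without Lpr 3.

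Eno1, the main enolase gene of most tissues, was lower in the MRL/lpr kidneys. It measured 962, 785 and 985 CPM in Ctr. It measured 500.3, 389, 643 and 515 CPM in Lpr. It measured 543, 479, 565 and 555 CPM in DNase. The lowest Ctr kidney lay above the highest MRL/lpr kidney, which was Lpr 3. The log2 difference from Ctr was -0.83 in Lpr and -0.76 in DNase. Without Lpr 3 that of Lpr was -0.96.

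Of all counts on Eno1 and Eno1b together, Eno1b took a mean of 1.19% ± 0.0411 in the 3 Ctr libraries, 25.1% ± 2.41 in the 4 Lpr libraries and 24.9% ± 0.555 in the 4 DNase libraries (± SD). The shares ran from 1.15% to 1.22% in Ctr, from 22.9% to 28.5% in Lpr and from 24.1% to 25.4% in DNase. The highest was Lpr 3, at 28.5% (95% Wilson interval 28.0 to 29.0%, counting error only). Between the treated and untreated MRL/lpr kidneys the share differed by -0.206 percentage points, with a two-sided exact permutation p of 0.943, where 70 splits allow no p below 0.0286.

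The 2 genes added together measured 922 ± 111 CPM in the 3 Ctr libraries, 687 ± 163 CPM in the 4 Lpr libraries and 713 ± 52.1 CPM in the 4 DNase libraries (± SD). The Ctr sums lay between 795 and 997 CPM and the DNase sums between 639 and 757 CPM. Lpr 3, at 900.1 CPM, lay inside the Ctr range, and the other Lpr sums lay at 504, 664 and 679.6 CPM. As 1 gene, the sum had a log2 difference from Ctr of -0.42 in Lpr and -0.37 in DNase, given with no test. DNase and Lpr differed in the summed level by 0.08 on the log2 scale (two-sided exact permutation p = 0.657). Without Lpr 2 the difference was -0.06, the lowest of the values with a library left out.

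**Figure D1:**
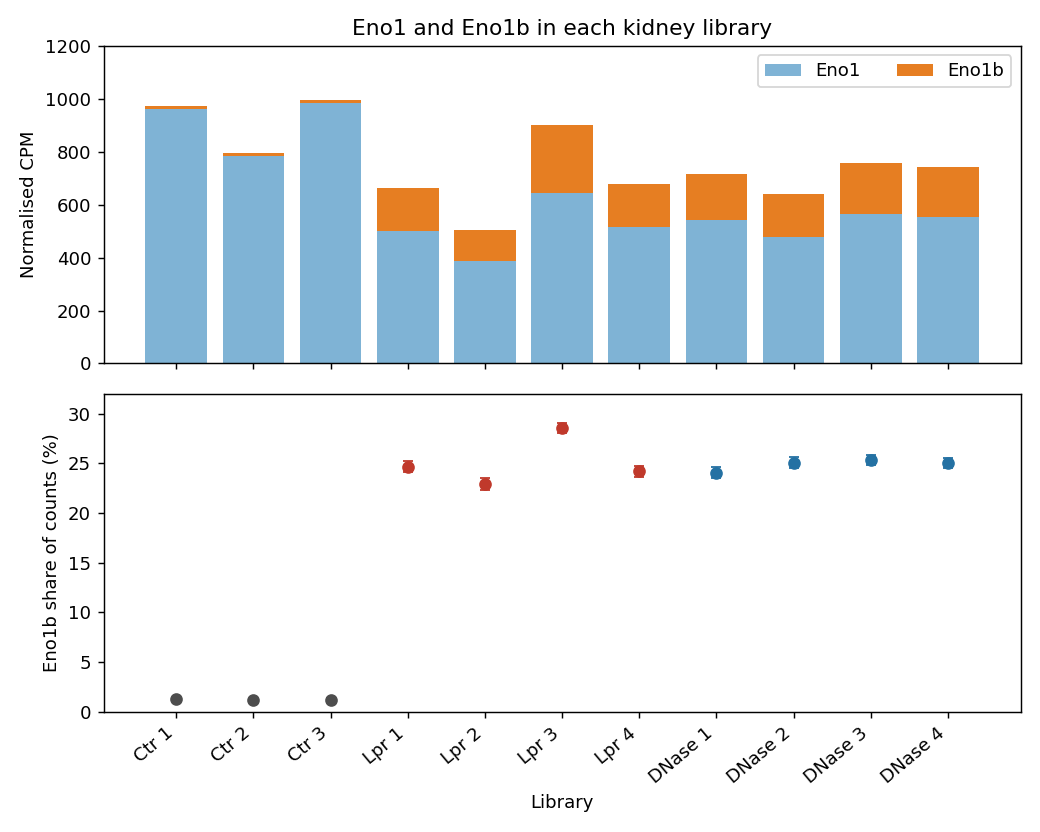
Upper panel: normalised CPM of Eno1 (blue) and Eno1b (orange), stacked, in each of the 11 kidney libraries. Lower panel: share of Eno1b among the counts of both genes, in percent, with 95% Wilson intervals that cover counting error only. The 3 Ctr kidneys lie at 1.15% to 1.22% and the 8 MRL/lpr kidneys at 22.9% to 28.5%.

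In the fit of DNase against Lpr, which the choice of Eno1b did not use, neither enolase gene passed the test. The log2 fold change was 0.07 (SE 0.168) for Eno1 and 0.03 (SE 0.222) for Eno1b, with adjusted p of 0.924 and 0.98 by edgeR's quasi-likelihood test. Without Lpr 3 these log2 fold changes were 0.19 and 0.26. Over the 11 libraries, the genes whose log2 CPM followed Eno1b most closely were Snap91 (Pearson r = 0.993), Mcmdc2 (r = 0.990) and Ccnb1ip1 (r = 0.989). These values describe a split into Ctr and MRL/lpr libraries that all points share, and they carry no p. All 3 genes were sparse: Snap91 ranged from 0.447 to 0.537 CPM in Ctr, from 4.33 to 10.9 CPM in Lpr and from 6.20 to 11.2 CPM in DNase. Mcmdc2 reached 0.0805 CPM in Ctr at most and Ccnb1ip1 0.0268 CPM.

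Per gene length, the members covered more than 3 orders of magnitude in the control kidney. Mean FPKM in Ctr (n = 3) was 1182 ± 248 (SD) for Pck1, 675 ± 42.0 for Fbp1, 440 ± 63.6 for Eno1 and 114 ± 11.3 for Ldha. Below these came Pkm with 65.0 ± 11.3, Hk1 with 35.3 ± 1.71, Pfkp with 17.4 ± 0.974, Eno1b with 6.07 ± 1.06 and Hk2 with 0.723 ± 0.60. In Ctr no neighbours in this order overlapped in their ranges.

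In Lpr the order opened with Fbp1, at 728 ± 125 FPKM (SD, n = 4), and Pck1, at 681 ± 251 FPKM, whose ranges overlapped. Eno1 followed with 252 ± 40.1 FPKM. Ldha at 120 ± 38.1 FPKM, Eno1b at 97.8 ± 27.7 FPKM and Pkm at 63.5 ± 7.23 FPKM came next, and the ranges of Ldha and Eno1b, and of Eno1b and Pkm, overlapped. Hk1 at 33.3 ± 11.2 FPKM and Pfkp at 18.5 ± 2.97 FPKM overlapped as well, and Hk2 stayed last with 1.30 ± 0.578 FPKM.

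In DNase the same order held, with Fbp1 at 708 ± 55.9 FPKM (SD, n = 4), Pck1 at 542 ± 74.6 FPKM, Eno1 at 276 ± 19.5 FPKM, Ldha at 108 ± 7.29 FPKM and Eno1b at 104 ± 7.93 FPKM. Only Ldha and Eno1b overlapped in their ranges among the neighbours of this order in DNase. Pkm (68.8 ± 10.8 FPKM), Hk1 (42.9 ± 6.53 FPKM), Pfkp (18.0 ± 1.82 FPKM) and Hk2 (0.648 ± 0.163 FPKM) followed. By mean FPKM, Eno1b thus stood below Pfkp in Ctr and above Pkm in both MRL/lpr groups. In Lpr its range overlapped that of Pkm. The authors' FPKM used 7687 bases for Pkm and 5342 bases for Ldha, far above their reading frames of 1593 and 1083 bases. The places of these 2 genes, also beside Eno1b, therefore depend on the length used.

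Hk1, the hexokinase found in most cells, was close to level in Ctr and varied more in the MRL/lpr kidneys. It measured 199, 192 and 201 CPM in Ctr. It measured 212, 192, 97.8 and 215 CPM in Lpr. It measured 246, 198, 256 and 195 CPM in DNase. The low value of 97.8 CPM was Lpr 3, and the groups overlapped. The log2 fold change was -0.14 (SE 0.265) in Lpr against Ctr, 0.19 (SE 0.112) in DNase against Ctr and 0.33 (SE 0.242) in DNase against Lpr, with adjusted p of 0.818, 0.293 and 0.854 by edgeR. Without Lpr 3 the log2 fold change was 0.07 in Lpr against Ctr and 0.12 in DNase against Lpr.

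Hk2, the insulin-regulated hexokinase of muscle and fat, was the lowest and the most variable member. It measured 5.23, 0.447 and 7.61 CPM in Ctr. It measured 3.52, 10.9, 7.13 and 9.50 CPM in Lpr. It measured 2.62, 4.38, 4.64 and 3.40 CPM in DNase. The DNase kidneys lay within the spread of Ctr, and only 1 of the 4 Lpr kidneys, Lpr 1, lay below the highest DNase kidney. Hk2 had the smallest p of the members in DNase against Lpr, with a log2 fold change of -1.04 (SE 0.344) and an adjusted p = 0.82 over 15832 genes by edgeR. The adjusted p ranged from 0.278 with DESeq2 to 0.997 without DNase 2. The log2 fold change was 0.81 (SE 0.748) in Lpr against Ctr and -0.24 (SE 0.645) in DNase against Ctr, and neither passed the test. Single Ctr libraries moved these values: without Ctr 2 they were 0.28 and -0.77, and without Ctr 3 they were 1.45 and 0.39. The summed level of 6 adipose tissue markers was 515, 66.1 and 1079 CPM in Ctr 1, Ctr 2 and Ctr 3, the order of Hk2 in these kidneys. The order did not hold in the other groups: the sums were 34.6, 68.0, 1393 and 754 CPM in Lpr 1 to Lpr 4 and 39.3, 277, 47.8 and 136 CPM in DNase 1 to DNase 4. Lpr 2, with the highest Hk2 of all, was thus low in these markers. None of the 6 markers was at 0 in every library, and their part in the Hk2 values was not tested.

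Pfkp, the platelet-type phosphofructokinase, was close to level across the kidneys. It measured 78.7, 79.0 and 83.9 CPM in Ctr. It measured 86.4, 92.2, 69.4 and 84.4 CPM in Lpr. It measured 87.0, 70.5, 80.3 and 73.9 CPM in DNase. The groups overlapped throughout, and the log2 fold change was 0.05 (SE 0.153) in Lpr against Ctr, -0.04 (SE 0.0847) in DNase against Ctr and -0.08 (SE 0.136) in DNase against Lpr. Without Lpr 3 it was 0.13 in Lpr against Ctr and -0.17 in DNase against Lpr.

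Pkm, which carries the muscle-type and embryonic forms of pyruvate kinase, also overlapped between all groups. It measured 545, 428 and 574 CPM in Ctr. It measured 448, 427, 559 and 537 CPM in Lpr. It measured 561, 437, 592 and 456 CPM in DNase. Each group held high and low kidneys, and the log2 fold change was -0.06 (SE 0.182) in Lpr against Ctr, -0.01 (SE 0.143) in DNase against Ctr and 0.06 (SE 0.161) in DNase against Lpr. Without Lpr 3 it was -0.13 in Lpr against Ctr and 0.12 in DNase against Lpr.

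Ldha, the lactate dehydrogenase subunit of glycolytic tissues, had 1 high library. It measured 634, 578 and 671 CPM in Ctr. It measured 586, 503, 1026 and 514 CPM in Lpr. It measured 539, 515, 554 and 621 CPM in DNase. The value of 1026 CPM was Lpr 3, and the other kidneys of all groups lay between 503 and 671 CPM. The log2 fold change of 0.07 (SE 0.269) in Lpr against Ctr turned to -0.23 without Lpr 3, and neither passed the test. It was -0.17 (SE 0.0955) in DNase against Ctr and -0.23 (SE 0.234) in DNase against Lpr, the latter 0.06 without Lpr 3.

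Pck1, the enzyme that controls the entry into gluconeogenesis and is made in the proximal tubule, was the member that differed from Ctr by a test. It measured 3390.4, 2551 and 3710 CPM in Ctr. It measured 2370.4, 1942, 905 and 1945 CPM in Lpr. It measured 1422, 1172, 1609 and 1329 CPM in DNase. Every MRL/lpr kidney lay below every Ctr kidney, and the lowest of all was Lpr 3. In DNase, Pck1 was 2.32-fold lower than in Ctr, with a log2 fold change of -1.22 (SE 0.155) and an adjusted p of 0.0005 by edgeR.

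In Lpr against Ctr the log2 fold change of Pck1 was -0.84 (SE 0.317), with an adjusted p of 0.157 by edgeR, and it did not pass. Without Lpr 3 it was -0.62 (SE 0.174) with an adjusted p of 0.0479, and it passed. The DNase and Lpr kidneys overlapped in Pck1 only through Lpr 3. DNase against Lpr gave -0.36 (SE 0.268, adjusted p = 0.854), and without Lpr 3 -0.59 (SE 0.137, adjusted p = 0.272), by edgeR. The difference of Pck1 between the treated and untreated MRL/lpr kidneys thus did not pass in either form.

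Markers of the proximal tubule, which holds most of the kidney's Pck1, moved in the same direction. Of 12 such markers, 10 had a lower mean in Lpr and 8 in DNase than in Ctr, and none was at 0 in every library. Their summed level was 27282 to 29227 CPM in Ctr, 14342 to 30177 CPM in Lpr and 16952 to 23009 CPM in DNase. The highest of these sums was in Lpr 3, the library in which Pck1 was lowest. Without Kap, the most abundant of them in Ctr, a choice made after seeing the data, the sums were 16683 to 19779 CPM in Ctr, 11411 to 17345 CPM in Lpr and 13885 to 17859 CPM in DNase, so that Ctr overlapped both other groups. Markers of the distal nephron were lower about as often, in mean, with 7 of 8 in Lpr and 6 of 8 in DNase below Ctr. Their summed level was 8208 to 8505 CPM in Ctr, 5304 to 7172 CPM in Lpr and 6136 to 9953 CPM in DNase. The part of either list in the Pck1 values was not tested.

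Fbp1, the other gluconeogenic enzyme of the group and also a proximal tubule gene, gave no such difference. It measured 1261, 1163 and 1176 CPM in Ctr. It measured 1272, 979, 1657 and 1169 CPM in Lpr. It measured 1105, 1184, 1093 and 1333 CPM in DNase. The groups overlapped, with the highest value in Lpr 3 and the lowest in Lpr 2. The log2 fold change was 0.08 (SE 0.204) in Lpr against Ctr, -0.02 (SE 0.0986) in DNase against Ctr and -0.10 (SE 0.18) in DNase against Lpr, and none passed the test. Without Lpr 3 it was -0.07 in Lpr against Ctr and 0.05 in DNase against Lpr.

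**Figure D2:**
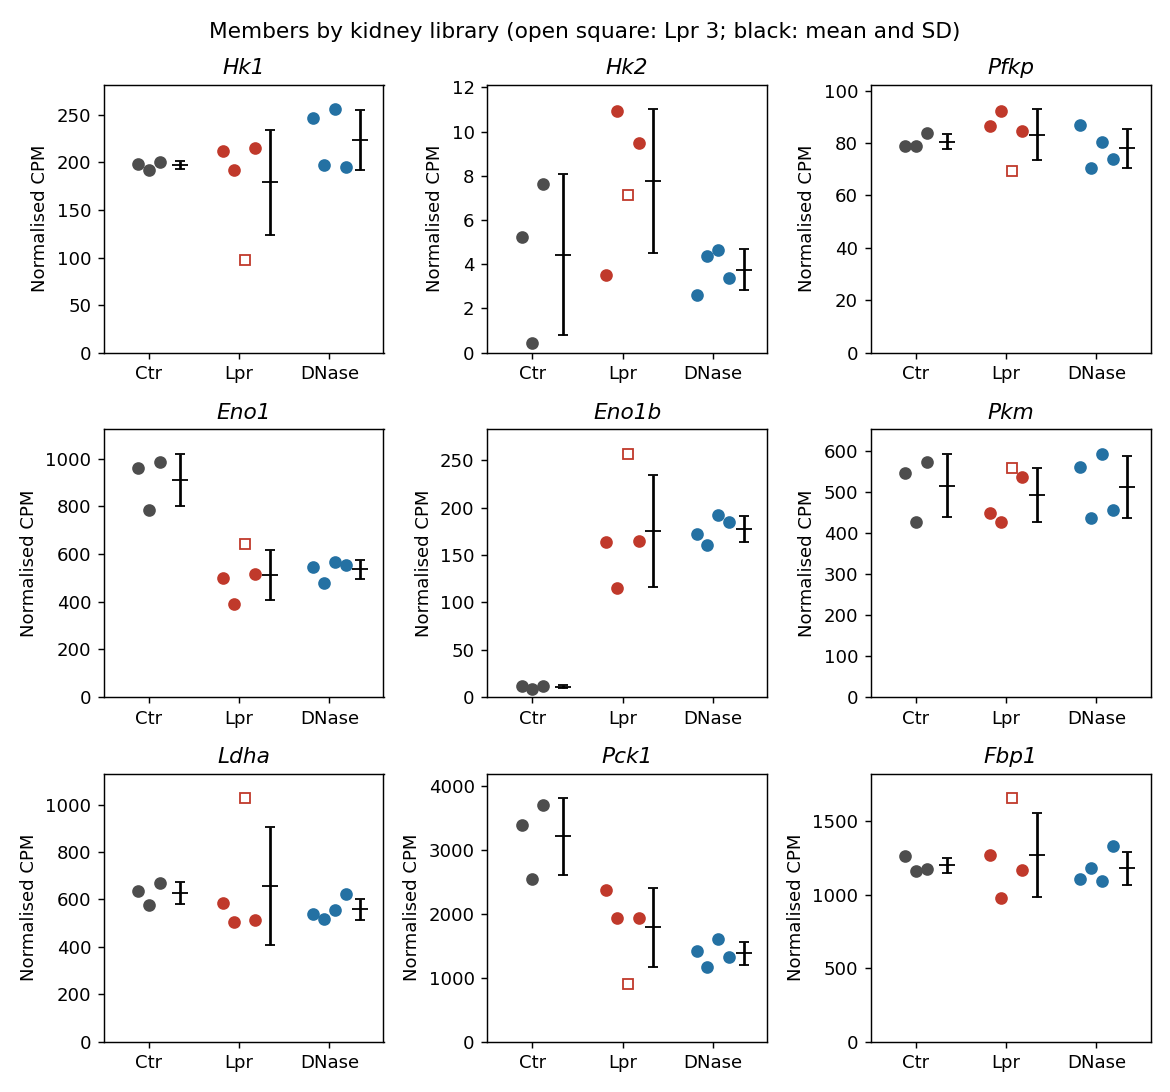
Normalised CPM (vertical axis, from 0) of each member in the 3 Ctr, 4 Lpr and 4 DNase libraries, with 1 point per library, Lpr 3 as an open square, and the mean and SD of each group in black. For Eno1, Eno1b and Pck1 no MRL/lpr kidney reaches the Ctr range, and Lpr 3 is the highest or the lowest Lpr library in 8 of the 9 panels.

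Over the members, 0 of the 7 that were tested against Ctr passed an adjusted p under 0.05 in Lpr, and 1, Pck1, had an unadjusted p under 0.05. DESeq2 also gave 0. Of the 16074 genes tested in that comparison, 3434 had an unadjusted p under 0.05, 7.27% passed as higher and 2.92% as lower. In DNase against Ctr 1 of the 7, Pck1, passed as lower, where 8.61% of the 16100 genes tested passed as lower and 13.1% as higher. In each of these comparisons the ranges did not overlap for 1 of the 7, again Pck1, against 25.6% of genes for Lpr and 31.9% for DNase, so that the share of the 7 was not above that of all genes. Lpr and DNase were compared with the same 3 Ctr libraries. The members were chosen with earlier results of these data known.

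Between DNase and Lpr 0 of the 9 members passed by edgeR or by DESeq2, and 1, Hk2, had an unadjusted p under 0.05. None of the 9 had ranges that did not overlap, against 3.79% of genes. The test called 0% of the 15832 genes in this comparison. In all, 886 genes had an unadjusted p under 0.05, and DESeq2 called 17.

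**Figure D3:**
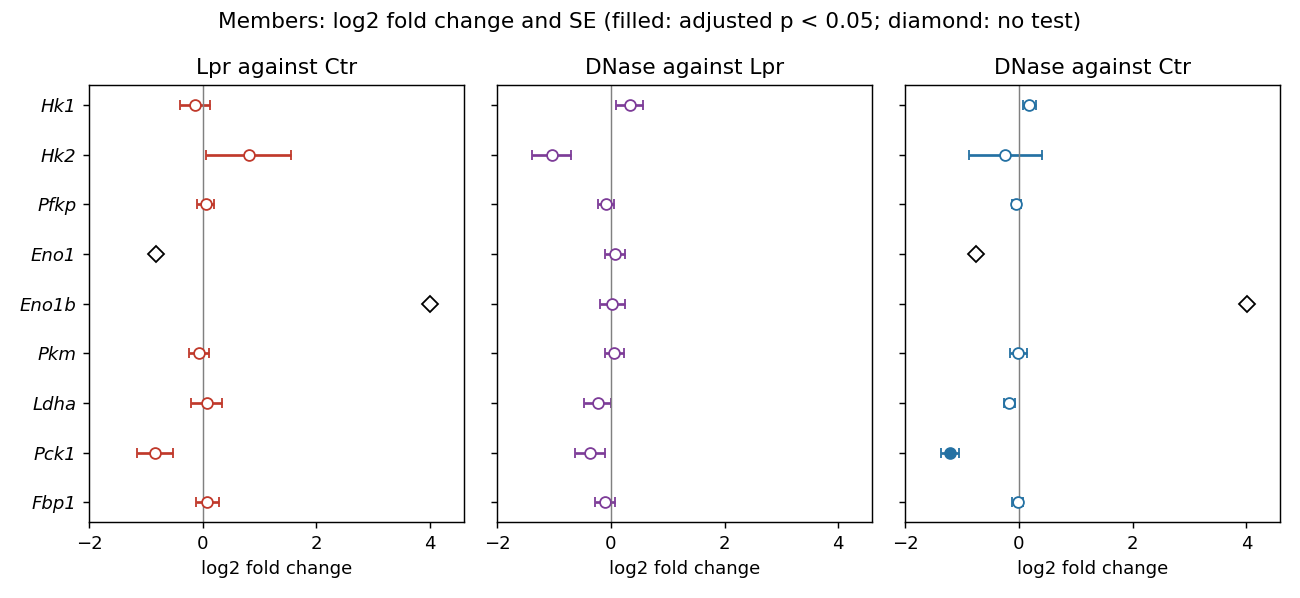
Log2 fold change (horizontal axis) with its SE for the 9 members in Lpr against Ctr, DNase against Lpr and DNase against Ctr, from edgeR. Filled circles passed an adjusted p under 0.05, and diamonds without bars are Eno1 and Eno1b, which were not tested against Ctr. Pck1 at -1.22 in DNase against Ctr is the only filled point.

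Most members made up the larger part of the transcripts of their step, per gene length. Of the summed FPKM of 5 hexokinase genes, Hk1 took 96.0% ± 1.38 in Ctr, 85.2% ± 4.24 in Lpr and 90.7% ± 1.95 in DNase (SD over 3, 4 and 4 libraries). The lowest Ctr share lay above the highest MRL/lpr share, 92.8%. Hk3, a hexokinase of myeloid cells, took 0.582% ± 0.207 in Ctr, 9.46% ± 3.26 in Lpr and 6.53% ± 1.96 in DNase.

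Pfkp was a minor form of its step. It took 25.9% ± 1.95 of the summed FPKM of 3 phosphofructokinase genes in Ctr, 30.5% ± 5.40 in Lpr and 27.5% ± 0.527 in DNase. Pfkl, the liver form, had the largest mean share in each group.

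Pkm took 80.4% ± 2.48 of the pyruvate kinase transcripts in Ctr, 84.6% ± 4.02 in Lpr and 84.1% ± 3.31 in DNase, beside Pklr, the form of liver and red cells. Ldha took 11.0% ± 1.54, 10.2% ± 0.682 and 9.68% ± 0.745 in the same order, beside Ldhb, the subunit of oxidative tissues. For both genes the ranges of the groups overlapped. The shares depend on the lengths behind the FPKM: with counts divided by the reading frame, an alternative chosen after seeing the data, Ldha took 31.9% ± 3.39 in Ctr, 30.2% ± 1.55 in Lpr and 28.9% ± 1.78 in DNase, and Pkm 91.5% ± 1.23, 93.5% ± 1.82 and 93.3% ± 1.54.

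Pck1 made up 99.4% ± 0.157, 98.5% ± 1.12 and 98.7% ± 0.160 of the sum of Pck1 and the mitochondrial form Pck2 in Ctr, Lpr and DNase. Its lowest share was 96.8%, in Lpr. Fbp1 made up between 94.3% and 97.4% of the sum of Fbp1 and Fbp2 over all libraries. Eno2, the neuronal enolase, and Eno3, the muscle enolase, together with the copies above, took a mean of 0.0423% and 0.283% of the enolase transcripts in Ctr, 0.156% and 0.575% in Lpr and 0.129% and 0.530% in DNase.

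The other genes of the pathway, 57 by symbol, included further enzymes, glucose and lactate carriers and the genes that govern the entry of pyruvate into mitochondria. Of these, 54 were listed in the table and 50 passed the filter on low counts in each comparison. The list was chosen with earlier results of these data known. In Lpr against Ctr 1 of 50 passed as higher (2.00%, against 7.27% of all genes) and 4 as lower (8.00%, against 2.92%). Their median log2 fold change was -0.16, and that of all genes tested was 0.03. The ranges of 16 of the 50 did not overlap (32%, against 25.6% of all genes).

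The 1 gene that rose was Hk3. It measured 1.02, 0.798 and 0.480 CPM in Ctr and between 7.14 and 16.9 CPM in Lpr, with a log2 fold change of 3.99 (SE 0.44, adjusted p = 0.00103 by edgeR). Of 12 leukocyte markers all 12 had a higher mean in Lpr than in Ctr, and their summed level was 54.2 to 103 CPM in Ctr, 723 to 1382 CPM in Lpr and 543 to 1009 CPM in DNase. None of the 12 was at 0 in every library, and their part in the Hk3 values was not tested.

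The 4 genes that fell in Lpr were Gapdh, Pdk1, Slc16a7 and Mpc1. Gapdh, the glyceraldehyde phosphate dehydrogenase of glycolysis, measured 166, 109 and 119 CPM in Ctr and 29.9 to 41.5 CPM in Lpr (log2 fold change -1.87, SE 0.2, adjusted p = 0.000896 by edgeR). The reference transcripts hold 70 copies of the Gapdh reading frame with at least 95% identity over at least 70% of its length, none with a row in the table, so that its count is uncertain. Pdk1, a kinase that switches off pyruvate dehydrogenase, measured 77.6, 64.4 and 62.4 CPM in Ctr and 11.9 to 27.2 CPM in Lpr (log2 fold change -1.88, SE 0.272, adjusted p = 0.00334 by edgeR).

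Slc16a7, a carrier of lactate and pyruvate, measured 259, 229 and 247 CPM in Ctr and 65.4 to 159 CPM in Lpr (log2 fold change -1.15, SE 0.271, adjusted p = 0.0293 by edgeR). Mpc1, a subunit of the mitochondrial pyruvate carrier, measured 196, 197 and 201 CPM in Ctr and 85.1 to 154 CPM in Lpr (log2 fold change -0.85, SE 0.213, adjusted p = 0.0371 by edgeR). The lowest of these Slc16a7 and the highest of these Mpc1 values were both in Lpr 3. The count of 5 genes rose to 13 without Lpr 3 and fell to 3 without Ctr 1, without Ctr 2, without Ctr 3 or without Lpr 1. DESeq2 gave 10.

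In DNase against Ctr 3 of 50 passed as higher (6.00%, against 13.1% of all genes) and 14 as lower (28.0%, against 8.61%). Their median log2 fold change was -0.17, and that of all genes tested was 0.00. The ranges of 22 of the 50 did not overlap (44.0%, against 31.9% of all genes). The count of 17 was 10 without Ctr 1, 11 with limma on FPKM and 7 with all 3 groups in 1 fit.

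The 3 that rose were Hk3, Eno3 and Eno2. Hk3 measured 7.54 to 17.5 CPM in DNase (log2 fold change 3.78, SE 0.397, adjusted p = 0.000162 by edgeR). Eno3 measured 6.6, 7.47 and 7.05 CPM in Ctr and 9.79 to 12.6 CPM in DNase (log2 fold change 0.61, SE 0.136, adjusted p = 0.0107 by edgeR). Eno2 measured 0.590, 0.670 and 0.690 CPM in Ctr and 0.904 to 2.20 CPM in DNase (log2 fold change 1.27, SE 0.376, adjusted p = 0.0395 by edgeR), a level of at most 81 counts in a library.

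The 6 with the smallest p among the 14 that fell were Pdk1, Gapdh, Mpc1, Pgam2, Pdk4 and Pdha1. Pdk1 measured 21.6 to 27.6 CPM in DNase (log2 fold change -1.49, SE 0.109, adjusted p = 2.11e-05 by edgeR). Gapdh measured 33 to 40.4 CPM (log2 fold change -1.84, SE 0.144, adjusted p = 3.21e-05 by edgeR). Mpc1 measured 99.6 to 125 CPM (log2 fold change -0.81, SE 0.0865, adjusted p = 0.00018 by edgeR). These 3 were also below Ctr in Lpr, against the same Ctr libraries.

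Pgam2, the muscle form of phosphoglycerate mutase, measured 66.3, 82.6 and 72.3 CPM in Ctr and 27.2 to 39.2 CPM in DNase (log2 fold change -1.22, SE 0.131, adjusted p = 0.000182 by edgeR). Of 8 skeletal muscle markers 7 had a lower mean in Lpr and in DNase than in Ctr, whereas Pvalb, the most abundant, had means of 23.6, 60.4 and 58.6 CPM in Ctr, Lpr and DNase. Myh1, the next most abundant in Ctr, had means of 12.3, 4.18 and 2.05 CPM in the same order. The summed level of the 8 was 48.5 to 67.3 CPM in Ctr, 40.9 to 96.0 CPM in Lpr and 52.4 to 73.8 CPM in DNase. That sum includes Pvalb, so that it hides the lower means of the other 7. None of the 8 was at 0 in every library, and their part in the Pgam2 values was not tested. Pdk4, a pyruvate dehydrogenase kinase that is induced in fasting, measured 41.7, 64.9 and 112 CPM in Ctr and 14.7 to 28.4 CPM in DNase (log2 fold change -1.76, SE 0.314, adjusted p = 0.00342 by edgeR). Pdha1, a catalytic subunit of pyruvate dehydrogenase, measured 677, 598 and 615 CPM in Ctr and 452 to 482 CPM in DNase (log2 fold change -0.44, SE 0.0797, adjusted p = 0.00369 by edgeR). In Lpr against Ctr, Pgam2 had a log2 fold change of -0.96, Pdk4 of -0.60 and Pdha1 of -0.52, and none of these passed the test. Among the genes named here that fell in DNase, Pdk1 and Pdk4 inhibit pyruvate dehydrogenase and Pdha1 is part of that enzyme.

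Between DNase and Lpr 0 of the 50 passed by edgeR or by DESeq2. Of the 50, 2 had an unadjusted p under 0.05, as did 886 of all 15832 genes tested. The median log2 fold change was -0.03, against -0.02 over all genes. The 3 genes with the smallest p were Slc16a1, Pdk4 and Slc16a7. Slc16a1, a carrier of lactate and pyruvate, measured 77.9, 62.5, 66.9 and 39.1 CPM in Lpr and 52.1, 30.9, 21.2 and 29.0 CPM in DNase (log2 fold change -0.88, SE 0.296, adjusted p = 0.82 by edgeR). Pdk4 had a log2 fold change of -1.15 (SE 0.492) with 1 high Lpr kidney, Lpr 2, at 111 CPM, and Slc16a7 one of 0.60 (SE 0.277), both with an adjusted p of 0.854 by edgeR. The ranges overlapped for all 3.

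**Figure D4:**
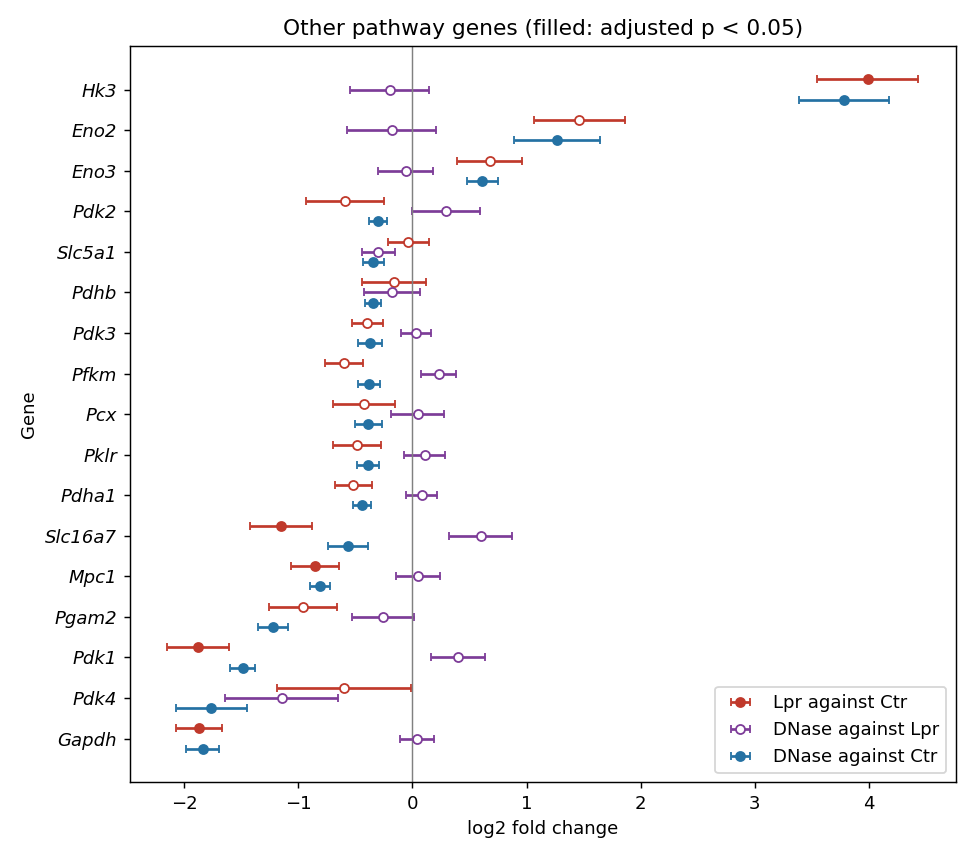
Log2 fold change (horizontal axis) with its SE, from edgeR, for the 17 other pathway genes that passed in a comparison with Ctr, in Lpr against Ctr (red), DNase against Lpr (violet) and DNase against Ctr (blue). Filled points passed an adjusted p under 0.05. Hk3, Eno2 and Eno3 lie to the right in both comparisons with Ctr, and no violet point is filled.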

How the data were processed

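Total RNA of 11 kidneys was sequenced as 100 base paired-end reads. The authors deposited raw read counts per gene, and the submitters' processing notes name fastp, HTSeq, DESeq2 and mm10. For the alignment the study's methods name HTSeq, which is a read counter. A further aligner, the strand setting and the handling of reads with several matches are not given in the sources used here. The deposited FPKM divide these counts by the library total and a gene length. All columns were used, so that 0 were left out. Each pair of groups was fitted alone by the quasi-likelihood test of edgeR 4.0.16 in R 4.3.3 after filterByExpr and TMM normalization, with Benjamini-Hochberg adjustment over all genes and a threshold of 0.05. Log2 CPM used a prior count of 2. For edgeR, the SE is the absolute log2 fold change divided by the square root of the quasi-likelihood F statistic. DESeq2 1.42.0 and limma 3.58.1 on log2(FPKM + 1) or log2(FPKM + 0.1), where the mean FPKM reached 0.5, were alternatives, as were other scalings, filters, the study's fold limit, all groups in 1 fit, the replicate number as a block and leaving out each library. Exact two-sided permutation tests served for single values. The fits were tested on simulated data.

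The members and the lists were chosen with earlier results of these data known. All members are named. Of the other pathway genes, at most 6 with the smallest p per direction and comparison are named among those that passed, or 3 where none passed. The 3 genes most correlated with Eno1b over 11 libraries are named without predicted genes. The summed Kap-free marker level was added after seeing the data.

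Depth was 33469858 to 38460873 counts per library. Replicates differed by a chi-square per degree of freedom of 17.5 to 393, so that the spread between libraries, not counting error, sets the precision. Pairs with Lpr 3 had values of 385 to 393, and all other pairs 17.5 to 85.7. A count of 0 allows up to 3 counts. Gene models and transcripts were GENCODE on GRCm38, compared with blastn 2.17.0+, and python 3.11.15 with matplotlib 3.10.9 drew the figures. No row carried the symbol of a member followed by -ps or -rs. Pseudogenes under other symbols were not covered by this search.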

Additional observations from a re-analysis of the deposited data

Results flagged for a closer look

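Hk1 in the Lpr group had 1 library far from the others. Lpr 3 measured 97.8 CPM and the other kidneys of the group 192 to 215 CPM, and on the log2 CPM scale the gap was 0.856 of the whole range, above Dixon's critical value for 4 samples. On the CPM scale itself the gap was 0.803 of the range, below that value. Of 18 groups of member values tested in this way, 1 was marked, and chance marks about 1 in 20. Lpr 3 is the library whose levels, relative to the mean of all libraries, fell with gene length. Against the mean of the other Lpr libraries, its log2 CPM differed by -1.07 for Hk1, with a length of 5399 bases. The difference was 0.95 for Ldha, with 5342 bases, and -1.20 for Pck1, with 2637 bases. The part of gene length in these values was not tested.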

How the results depend on the processing

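The number of members that passed was 0 in DNase against Lpr under every alternative run. In Lpr against Ctr it was 0, and 0 to 1 when a library was left out. In DNase against Ctr it was 1 (Pck1) and 0 under the study's limit of an absolute log2 fold change above 2. For the other pathway genes in Lpr against Ctr the count of 5 became 10 with DESeq2, 10 with all 3 groups in 1 fit, 1 with the limit of 2, and 3 to 13 when a library was left out. In DNase against Ctr the count of 17 became 7 with all 3 groups in 1 fit, 11 with limma on log2(FPKM + 1) and 11 on log2(FPKM + 0.1), 1 with the limit of 2, and 10 to 18 when a library was left out. The causes were not tested.

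Signs changed only for differences that did not pass, and the widest range was that of Hk2 in DNase against Ctr. In DNase against Ctr, limma on log2(FPKM + 1) and log2(FPKM + 0.1) gave 0.044 and 0.046 for Pfkp, 0.084 and 0.086 for Pkm and 0.0686 and 0.0687 for Fbp1, and the second gave 0.29 for Hk2. Leaving out a library gave, in Lpr against Ctr, -0.23 to 0.069 for Hk1, -0.020 to 0.13 for Pfkp, -0.19 to 0.019 for Pkm, -0.23 to 0.17 for Ldha and -0.070 to 0.17 for Fbp1. In DNase against Lpr it gave -0.048 to 0.19 for Eno1, -0.14 to 0.26 for Eno1b, -0.014 to 0.14 for Pkm, -0.35 to 0.060 for Ldha, -0.21 to 0.047 for Fbp1 and -0.058 to 0.22 for the sum of Eno1 and Eno1b. In DNase against Ctr it gave -0.77 to 0.39 for Hk2, -0.10 to 0.00054 for Pfkp, -0.13 to 0.068 for Pkm and -0.084 to 0.011 for Fbp1. Pck1 in DNase against Ctr kept its call under every alternative with the 0.05 threshold alone, from -1.36 to -1.11.

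With the replicate number as a block, the pathway count in DNase against Ctr was 5, Hk2 was 0.24 and Pkm 0.045, and no call of a member changed. The deviations of same-numbered libraries from their group means had r from -0.312 to 0.268, with no comparison in which every pair was positive, so the numbers were not taken to pair the mice. Other scalings moved the median of all genes by less than 0.1. Hk2, at 0.447 to 10.9 CPM, is the member most limited by depth.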
